A study of Mus musculus with 18 samples.

Results

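This comparison sets bone marrow derived macrophages of Nrf2-/- mice, treated with LPS for 4 h, against Nrf2+/+ macrophages given the same LPS. The members are all arrays whose titles carry these labels: 4 knockout arrays (a to d) and 3 wild type arrays (a to c), 7 of the 18 arrays in the series. The remaining arrays comprise 5 knockout and 3 wild type arrays on which heme-albumin (200 µM, 4 h) preceded the 4 h of LPS, and 3 wild type arrays with albumin for 4 h and no LPS. Marrow cells of mice aged 8 to 10 weeks were grown for 7 days with M-CSF at 10 ng/ml, and LPS was used at 10 ng/ml. The treatment protocol puts albumin or heme-albumin before LPS, whereas albumin is absent from the labels of these 7 arrays, so it is unclear what the cells received beforehand. The sources also do not give the part of the Nrf2 gene that was deleted, the breeding of the wild type mice or the genotype of the common reference. No knockout array without LPS was among the samples, so the LPS response itself can be set against unstimulated cells in the wild type alone.

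Each array carried 2 dyes, with 1 macrophage sample in Cy5 and untreated macrophages in Cy3. Every value below is a log2 ratio of sample over that reference, and a log2 difference is the knockout mean minus the wild type mean of such ratios. A ratio shows neither the level of a gene nor that it is absent, so the macrophage identity of the cultures could not be read from it. A lower share of one cell type and less RNA per cell cannot be told apart in such bulk samples. The design text calls the arrays of a condition independent biological replicates.

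NRF2, the protein of the gene Nfe2l2, is a transcription factor that KEAP1 holds in the cytoplasm and sends for degradation. Electrophiles and oxidants release it, and with a small MAF partner it then binds antioxidant response elements of genes for glutathione and thioredoxin metabolism, quinone reduction, NADPH supply and heme breakdown. LPS, a component of the wall of Gram-negative bacteria, acts on macrophages through TLR4 and induces cytokines, chemokines and interferon-stimulated genes. NRF2 is also known to restrain some of these inflammatory genes in macrophages.

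Nfe2l2 itself was listed at exactly 0 on all 4 knockout LPS arrays, against log2 ratios of -0.59, -0.45 and 0.16 on the wild type LPS arrays. It was at exactly 0 on the 5 knockout arrays with heme and LPS as well, whereas the 3 wild type arrays with heme and LPS had 0.13, 1.001 and 0.80. The gene had 1 probe, whose place relative to the deletion is not known. Exact zeros also occurred widely elsewhere. They made up 23.56% to 44.35% of all features on the knockout LPS arrays and 21.7% to 45.72% on the wild type LPS arrays, with means of 34.45% and 34.76% (exact permutation test, two-sided, p = 0.9143, with 0.0571 the smallest p that 4 against 3 arrays allow).

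Of 22485 genes, 1 passed the test between Nrf2-/- and Nrf2+/+ macrophages under LPS, at an adjusted p under 0.05 (limma, Benjamini-Hochberg over all genes). It was lower in the knockout, which is 0.00445% of the genes tested, and 0 genes were higher. This fit did not use the replicate letters, and with the letter as a block 0 genes passed. At an unadjusted p under 0.05 there were 269 genes higher (1.2%) and 288 lower (1.28%), together 557 genes (2.48%). That is fewer than the share of 0.05 which this threshold allows where no gene differs. Shares of all genes quoted beside the lists below are therefore a comparison and not a level expected by chance. The 7 arrays did not overlap between genotypes for 348 genes higher in the knockout (1.55%) and for 331 genes lower (1.47%). The 2 genotypes were about as alike as replicates of 1 genotype. Pearson correlations over all genes were 0.794 to 0.929 between a knockout and a wild type array, 0.83 to 0.895 within the knockout and 0.786 to 0.868 within the wild type, as a description of arrays that share their reference. The number of arrays limits the precision. Among 11958 genes with no exact 0 on the 7 arrays, the 95% confidence interval of the difference lay within 1 log2 unit either way for 9645 genes (80.7%), and its median half-width was 0.47.

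**Figure D1:**
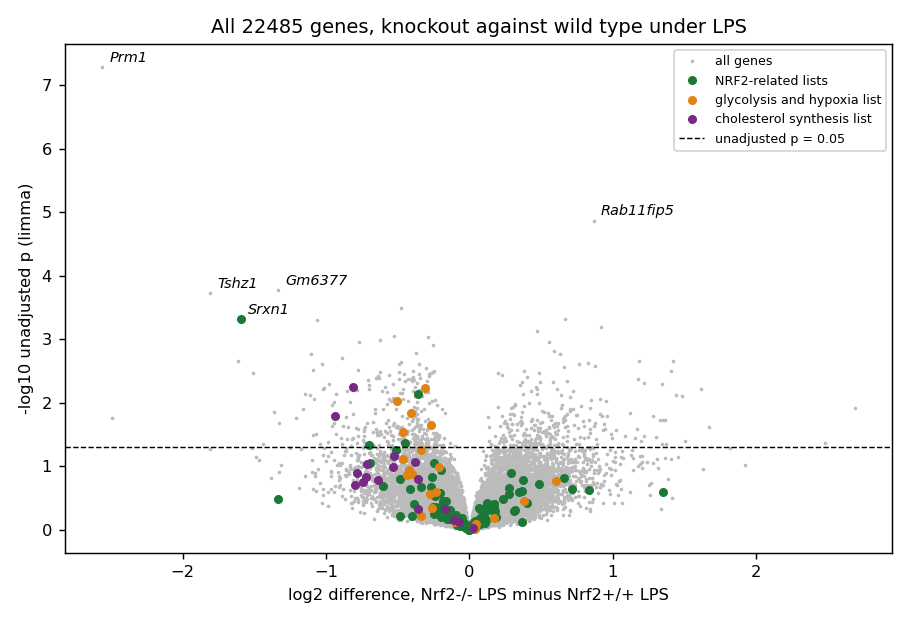
Each point is 1 of 22485 genes, with the log2 difference (Nrf2-/- LPS minus Nrf2+/+ LPS, 4 against 3 arrays) on the x axis and minus log10 of the unadjusted limma p on the y axis. Green, orange and purple points are members of the NRF2-related, glycolysis and hypoxia, and cholesterol synthesis lists, and Prm1 stands alone at a difference of -2.56.

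The gene that passed was Prm1, which encodes protamine 1, a protein that packs DNA in sperm. Prm1 had log2 ratios of -0.94, -0.84, -0.36 and -0.62 on the knockout arrays, against 2.54, 1.91 and 1.17 on the wild type arrays. All 4 knockout arrays were below the reference and all 3 wild type arrays above it. Prm1 averaged -0.69 ± 0.26 in the knockout (SD, n = 4) and 1.87 ± 0.68 in the wild type (SD, n = 3), a log2 difference of -2.56 ± 0.25 (SE, limma adjusted p = 0.00116). That SE and p draw on the spread in all 5 groups, also those outside this comparison. There the SD of Prm1 was 0.03 on the albumin arrays, and with heme and LPS 0.20 in the knockout and 0.26 in the wild type. Within each replicate letter the difference was -3.48 for a, -2.75 for b and -1.53 for c, so it had 1 direction and its size varied. The gene had 1 probe.

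The wild type ratios of Prm1 under LPS stood apart from those of the other wild type groups. The albumin arrays had -0.06, -0.01 and -0.01, and the wild type arrays with heme and LPS had 0.59, 0.08 and 0.38. With heme and LPS, Prm1 had -0.25, 0.28, -0.10, -0.01 and 0.06 in the knockout, a log2 difference from wild type of -0.36 (limma adjusted p = 0.515). The knockout effects in the 2 treatments differed by 2.21 ± 0.34 (SE, limma adjusted p = 0.00481), which did not pass with the replicate letter as a block (limma adjusted p = 0.0965). The call of Prm1 under LPS was lost in both fits with the replicate letter as a block (limma adjusted p = 0.389 over all LPS-treated arrays, and 0.681 over the 7 arrays). These blocked fits gave 0 called genes, and the first had 424 genes higher (1.89%) and 547 lower (2.43%) at an unadjusted p under 0.05. Over both directions that p was reached by 971 genes in the first, 1456 in the second and 557 in the main fit. The call was also lost in the fit of the 7 arrays without a block (0.822), while the difference itself stayed between -2.56 and -2.58 in these 3 fits.

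Neighbours of Prm1 on chromosome 16 did not show its fall in the knockout. Prm2 and Prm3, which encode other members of the protamine family, had log2 differences of 0.00 and 0.32. Tnp2, a transition protein gene of maturing sperm, was listed at 0 on all 7 arrays, so no difference could be read from it. Socs1, an inhibitor of cytokine signalling, had 4.33 to 4.83 in the knockout and 4.19 to 4.48 in the wild type, which overlap. These neighbours were chosen after the values of Prm1 had been seen.

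The promoter windows of 4 genes are shown because the results turn on them: Prm1 as the gene that passed, Srxn1 as the NRF2 target with the lowest difference, and Txnrd1 and Gsta3 as targets whose window holds the long form of the antioxidant response element. The windows run from 250 bases before to 50 bases after the gene start, from RefSeq on build GRCm38.p6, and they were chosen after the values had been seen. They lie at chr16:10796774-10797073 (minus strand, Prm1), chr2:152105274-152105573 (plus strand, Srxn1), chr10:82858956-82859255 (plus strand, Txnrd1) and chr1:21240335-21240634 (plus strand, Gsta3). Capitals mark TGANTCA in Srxn1, and in Txnrd1 and Gsta3 the long form, which is TGACNNNGC with an A after it. Both strands were searched for these. The short form TGACNNNGC was not marked in Srxn1, Txnrd1 or Gsta3. Srxn1 does hold it on the opposite strand, as gctaggtca near the end of its window.
Prm1: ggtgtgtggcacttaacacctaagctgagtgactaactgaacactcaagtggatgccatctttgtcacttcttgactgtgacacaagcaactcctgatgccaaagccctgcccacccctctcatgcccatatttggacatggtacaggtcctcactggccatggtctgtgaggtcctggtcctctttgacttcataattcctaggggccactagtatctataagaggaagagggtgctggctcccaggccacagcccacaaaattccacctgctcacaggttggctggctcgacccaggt
Srxn1: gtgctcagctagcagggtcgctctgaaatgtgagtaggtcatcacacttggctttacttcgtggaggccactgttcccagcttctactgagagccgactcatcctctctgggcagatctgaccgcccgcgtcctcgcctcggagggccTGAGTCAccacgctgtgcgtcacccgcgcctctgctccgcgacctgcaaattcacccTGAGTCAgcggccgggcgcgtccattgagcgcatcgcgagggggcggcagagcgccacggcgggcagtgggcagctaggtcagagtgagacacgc
Txnrd1: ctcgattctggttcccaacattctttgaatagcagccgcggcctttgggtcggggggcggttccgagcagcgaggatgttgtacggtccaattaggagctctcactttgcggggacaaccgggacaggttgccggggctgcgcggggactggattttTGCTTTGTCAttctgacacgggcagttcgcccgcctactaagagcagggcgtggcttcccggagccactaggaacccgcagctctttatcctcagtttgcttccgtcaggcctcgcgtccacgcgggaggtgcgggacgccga
Gsta3: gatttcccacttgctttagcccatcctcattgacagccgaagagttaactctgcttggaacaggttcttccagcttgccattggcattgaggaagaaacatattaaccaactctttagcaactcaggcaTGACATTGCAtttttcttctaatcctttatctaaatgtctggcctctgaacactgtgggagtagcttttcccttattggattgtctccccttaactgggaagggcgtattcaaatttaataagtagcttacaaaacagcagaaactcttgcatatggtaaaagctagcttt

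The Prm1 window held no match to the short form TGACNNNGC, to the long form or to TGANTCA on either strand. TGANTCA was added as the core letters to which AP-1 and MAF partners bind, and TGACTCA followed by GC matches it and the short form together. Among 17162 measured genes with a window, 15% held the short form, 3.31% the long form and 8.24% TGANTCA. Among 97 genes of the NRF2-related lists with a window the shares were 22.7%, 6.19% and 16.5%. Among 214 genes lower in the knockout at an unadjusted p under 0.05 they were 16.4%, 3.27% and 7.01%. For 209 genes higher at that p they were 20.6%, 5.74% and 7.66%. A match is a description of letters, not a binding site.

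In 7 lists of NRF2-related genes, 114 of 119 members were measured and 0 passed the test under LPS. Of these, 4 were lower in the knockout at an unadjusted p under 0.05 (3.51%, against 1.28% of all genes), namely Srxn1, Pgd, Hmox1 and Mafg, and 0 were higher. The arrays of the genotypes did not overlap for 6 members that were lower in the knockout (5.26%, against 1.47%) and for 2 that were higher (1.75%, against 1.55%). The median log2 difference over the 114 members was -0.02, beside 0.00 over all genes. The interval lay within 1 log2 unit for 79 of the 96 members without an exact 0 (82.3%), close to the share over all genes.

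In the thioredoxin system, Srxn1 stood lowest. Srxn1 encodes sulfiredoxin, which repairs overoxidised peroxiredoxins. It had log2 ratios of -2.03, -1.92, -1.68 and -2.12 in the knockout, against -1.02, 0.02 and -0.03 in the wild type. The groups did not overlap, and wild type array a lay nearest to the knockout. The log2 difference was -1.59 ± 0.35 (SE, 95% confidence interval -2.35 to -0.84, limma adjusted p = 1), which did not pass over all genes. Over the alternatives run, the adjusted p of Srxn1 lay between 0.0539 and 1.

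Prdx1, a peroxiredoxin that reduces peroxides, had -0.14, 0.05, -0.22 and -0.18 in the knockout and 0.34, 0.60 and 0.25 in the wild type, without overlap, a log2 difference of -0.52 (95% confidence interval -1.05 to 0.02). Txnrd1, the cytosolic thioredoxin reductase, had 0.88, 0.68, 0.63 and 0.64 in the knockout and 0.78, 0.73 and 0.68 in the wild type. Both genotypes of Txnrd1 were above the reference and overlapped, with a log2 difference of -0.02 (95% confidence interval -0.71 to 0.66). The thioredoxin list held 11 measured genes with a median difference of -0.01.

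Glutathione synthesis showed no gene that passed. Gclc encodes the catalytic subunit of the enzyme that limits glutathione synthesis. Gclc had log2 ratios of -1.86, -0.56, -1.19 and -2.13 in the knockout and -1.73, -0.53 and -0.87 in the wild type. Its modifier subunit Gclm had -0.91, -0.41, -0.64 and -1.33 in the knockout and -0.61, 0.27 and -0.05 in the wild type. Both genes overlapped between genotypes, with log2 differences of -0.39 ± 0.45 (SE) for Gclc and -0.69 ± 0.38 (SE) for Gclm. Slc7a11, the cystine importer, had 0.00, 3.61, 0.34 and 1.61 in the knockout and 0.00, 4.59 and 3.59 in the wild type. Its spread within each genotype exceeded the log2 difference of -1.34 (95% confidence interval -4.14 to 1.47).

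Nqo1, which reduces quinones and is a common readout of NRF2 activity, had log2 ratios of 0.00, -0.75, 0.07 and -0.49 in the knockout and -0.86, 0.06 and 0.07 in the wild type. The genotypes overlapped fully, with a log2 difference of -0.05 ± 0.30 (SE). In the list of quinone, carbonyl and epoxide enzymes, Esd and Akr1a1 were lower in the knockout without overlap, with log2 differences of -0.49 and -0.26. Aldh3a1, an aldehyde dehydrogenase, was higher without overlap, by 0.17. Among enzymes that make NADPH, Pgd of the pentose phosphate pathway had 0.02, -0.26, -0.32 and -0.28 in the knockout and 0.16, 0.20 and 0.07 in the wild type. Its arrays did not overlap, and its log2 difference was -0.36 ± 0.11 (SE, limma adjusted p = 1).

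Hmox1 encodes heme oxygenase, which opens the heme ring and is a target of NRF2 and of its rival BACH1. It had log2 ratios of -1.44, -1.52, -1.12 and -1.56 in the knockout and -1.12, -0.51 and -0.51 in the wild type. All 7 arrays were below the reference, and wild type array a reached into the knockout range. The log2 difference of Hmox1 was -0.70 (95% confidence interval -1.38 to -0.01, limma adjusted p = 1). Mafg, a small MAF partner of NRF2, had a log2 difference of -0.45 (limma adjusted p = 1), with overlap. Slc11a1, an iron exporter of phagosomes, was higher in the knockout by 0.28 without overlap, and Gpx4, which reduces lipid peroxides, was lower by a log2 difference of -0.27 without overlap. In the list of glutathione transferases and efflux pumps, 25 of 25 genes were measured, the arrays of each gene overlapped between genotypes and the differences lay between -0.24 and 0.66.

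**Figure D2:**
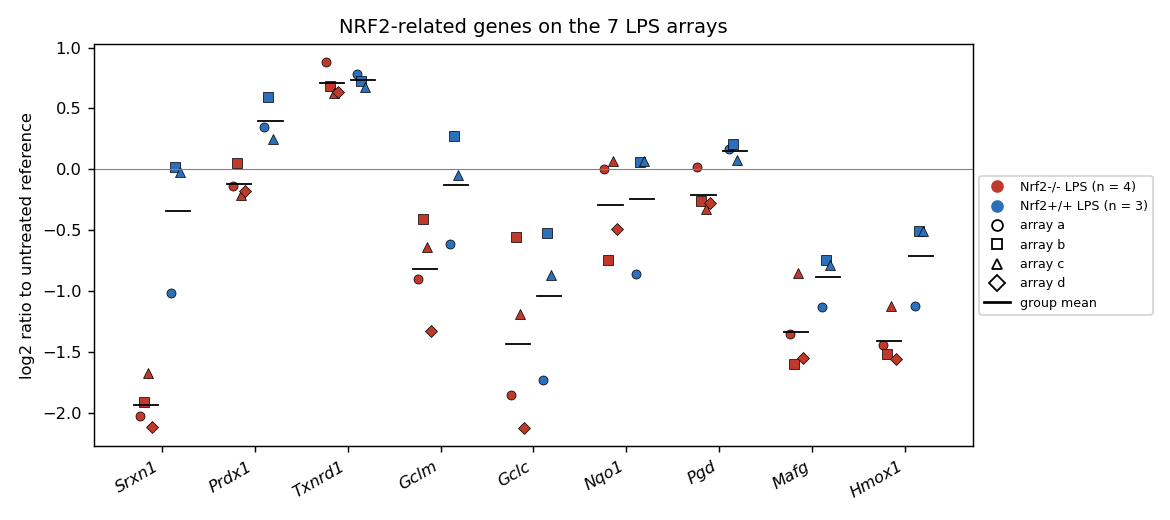
Log2 ratio to the untreated reference (y axis) of 9 NRF2-related genes on every LPS array, with Nrf2-/- (red, n = 4) left of Nrf2+/+ (blue, n = 3). Marker shapes give the replicate letter and bars the group means; Srxn1, Prdx1 and Pgd do not overlap between genotypes, whereas Txnrd1, Gclc and Nqo1 do.

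The same genotypes were compared under heme and LPS on 8 other arrays, none of them shared with the LPS comparison. There 479 genes were higher in the knockout (2.13%) and 710 lower (3.16%) at an adjusted p under 0.05 (limma). With the replicate letter as a block these calls were 304 higher and 513 lower in the fit of all LPS-treated arrays, and 0 in the fit of these 8 arrays alone, where 1481 genes were lower at an unadjusted p under 0.05. Of the 114 NRF2-related genes 39 fell (34.2%) and 2 rose, with a median log2 difference of -0.35. With the block over all LPS-treated arrays 30 of them fell and 2 rose, and over the 8 arrays alone 0 passed. The difference of the knockout effects, heme and LPS minus LPS alone, passed the test for 54 genes that were higher (0.24%) and 159 that were lower (0.707%). Among NRF2-related genes 16 were lower by this test (14%) and 1 was higher, Hmox2. With the block over all LPS-treated arrays the difference of effects passed for 36 genes that were higher and 105 that were lower, among them 9 NRF2-related genes, all lower.

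Ptgr1, a reductase of prostaglandins and leukotrienes, was among the genes whose knockout effect differed between the treatments. Under LPS it had log2 ratios of -0.13, -0.23, -0.12 and -0.25 in the knockout and -0.25, -0.17 and -0.16 in the wild type, a log2 difference of 0.01 (95% confidence interval -0.23 to 0.26). Under heme and LPS the log2 difference of Ptgr1 was -3.47 (limma adjusted p = 3.44e-10). For Ptgr1 the 2 effects differed by -3.48 ± 0.16 (SE, limma adjusted p = 5.42e-08). Gss, which completes glutathione synthesis, had log2 differences of -0.25 under LPS and -2.83 under heme and LPS. Nqo1 had -0.05 and -2.72, and Gclc -0.39 and -3.24. With the block over all LPS-treated arrays the difference of effects still passed for Ptgr1 and Gss (limma adjusted p = 0.000324 and 0.00159) but not for Nqo1 and Gclc (0.104 and 0.194).

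Gsta3, a glutathione transferase with the long element in the window shown above, had log2 ratios of 0.00, -0.22, 0.06 and -0.88 under LPS in the knockout and -0.13, 0.17 and -0.23 in the wild type. It overlapped under LPS, with a log2 difference of -0.20, and fell in the knockout under heme and LPS, with a log2 difference of -5.04 (limma adjusted p = 4.47e-06). In the list of glutathione transferases and efflux pumps 13 of 25 genes fell under heme and LPS (52%, against 3.16% of all genes), and 0 passed under LPS. For 7 of the 25 the difference of effects was lower (28%, against 0.707% of all genes), and for 3 with the block over all LPS-treated arrays. Among NRF2-related genes whose difference of effects did not pass, Srxn1 had log2 differences of -1.59 under LPS and -2.15 under heme and LPS, and these differed by -0.56 ± 0.49 (SE, limma adjusted p = 0.935). The 95% confidence interval of that difference of Srxn1 was -1.61 to 0.49.

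**Figure D3:**
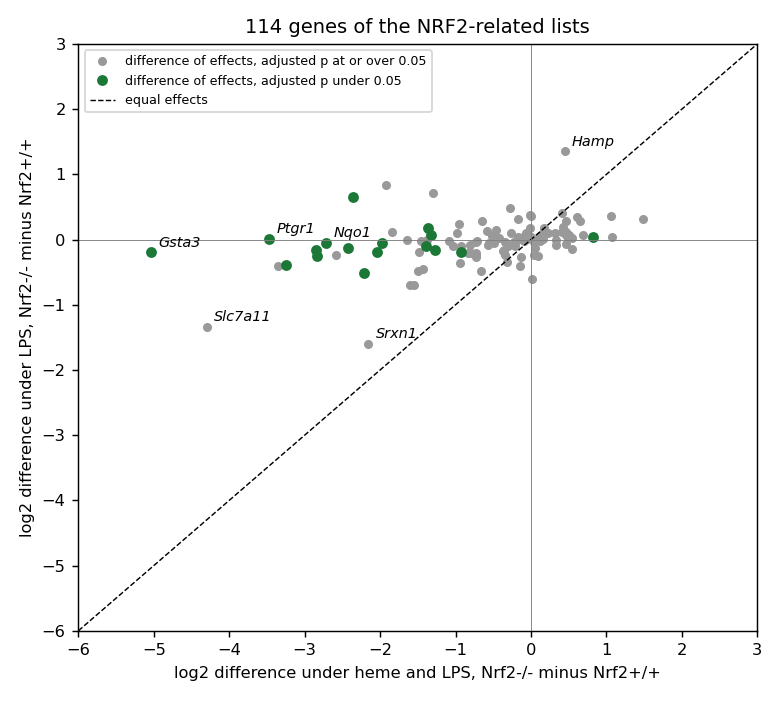
Each point is 1 of 114 genes of the NRF2-related lists, with the log2 difference (Nrf2-/- minus Nrf2+/+) under heme and LPS on the x axis (5 against 3 arrays) and under LPS alone on the y axis (4 against 3 arrays). Green points passed the test of the difference of effects (16 lower, 1 higher), and most of them lie near 0 on the y axis, above the dashed line of equal effects.

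The 2 metabolic lists below leaned to lower values in the knockout without a member that passed. In the glycolysis and hypoxia list 23 of 26 genes were measured, and 5 were lower at an unadjusted p under 0.05 (21.7%, against 1.28% of all genes), namely Tpi1, Gapdh, Pgam1, Pkm and Slc16a3. The arrays did not overlap for 7 members that were lower in the knockout (30.4%, against 1.47%) and for 0 that were higher. The median log2 difference was -0.27, beside 0.00 over all genes, with 17 differences negative and 6 positive. They ran from -0.50 to 0.61, and the largest by size was the positive one of Egln3. Egln3 had log2 ratios of 0.00, -0.45, -1.09 and -0.40 in the knockout and -0.35, -1.61 and -1.31 in the wild type. It overlapped between genotypes, with a log2 difference of 0.61 ± 0.42 (SE), and its 2 probes differed by 1.19. Tpi1, triose phosphate isomerase, had log2 ratios of -0.83, -0.70, -0.50 and -0.64 in the knockout and -0.14, -0.18 and -0.16 in the wild type. All knockout arrays of Tpi1 lay below all wild type arrays, with a log2 difference of -0.50 ± 0.17 (SE, limma adjusted p = 1).

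Gapdh, the next enzyme of glycolysis, had -0.53, -0.49, -0.33 and -0.38 in the knockout and -0.09, -0.15 and -0.13 in the wild type. Its log2 difference was -0.31 ± 0.09 (SE, limma adjusted p = 1), averaged over 7 probes. Pgam1, Pkm, Pfkl and Ldha, further enzymes of the pathway, had log2 differences of -0.41, -0.27, -0.42 and -0.46 without overlap. Bnip3, a mitophagy gene induced by hypoxia, had -0.40 without overlap, and Slc16a3, a lactate exporter, had -0.46 with overlap. Under heme and LPS 9 of the 23 genes fell (39.1%, against 3.16% of all genes), among them Tpi1, Gapdh, Pgam1, Pkm, Slc16a3 and Bnip3. With the block over all LPS-treated arrays Tpi1 and Slc16a3 did not pass there (limma adjusted p = 0.0847 and 0.0557). The difference of effects passed for 0 of the 23.

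In cholesterol synthesis 17 of 21 genes were measured, and 16 of the 17 differences were negative (94.1%, against 46.7% of all genes). The median log2 difference was -0.54, 2 members (Sc5d and Cyp51) were lower at an unadjusted p under 0.05 (11.8%), and the arrays did not overlap for 5 that were lower (29.4%, against 1.47%). Sc5d, a desaturase late in the pathway, had log2 ratios of -0.25, -1.13, -0.05 and -0.18 in the knockout and 0.68, 0.33 and 0.21 in the wild type. The groups of Sc5d did not overlap, and knockout array b was the lowest (log2 difference -0.81 ± 0.25, SE, limma adjusted p = 1). Cyp51, the sterol demethylase, had -0.62, -1.57, -0.34 and -0.61 in the knockout and 0.76, -0.08 and -0.23 in the wild type, a log2 difference of -0.94 (limma adjusted p = 1).

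The per-array medians of the cholesterol list were -0.70, -1.20, -0.44 and -0.61 in the knockout and -0.06, -0.30 and -0.42 in the wild type. Knockout array c and wild type array c were therefore nearly equal, and for Cyp51 the difference within letter c was -0.11, against -1.39 within a and -1.49 within b. Mvd, Lss and Nsdhl, other enzymes of the pathway, were lower without overlap, with log2 differences of -0.53, -0.75 and -0.54. In the heme and LPS comparison the list had a median of 0.05 and 0 calls, and the difference of effects passed for 0 of its genes. Members of 1 pathway move together across cultures and are not independent of each other.

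**Figure D4:**
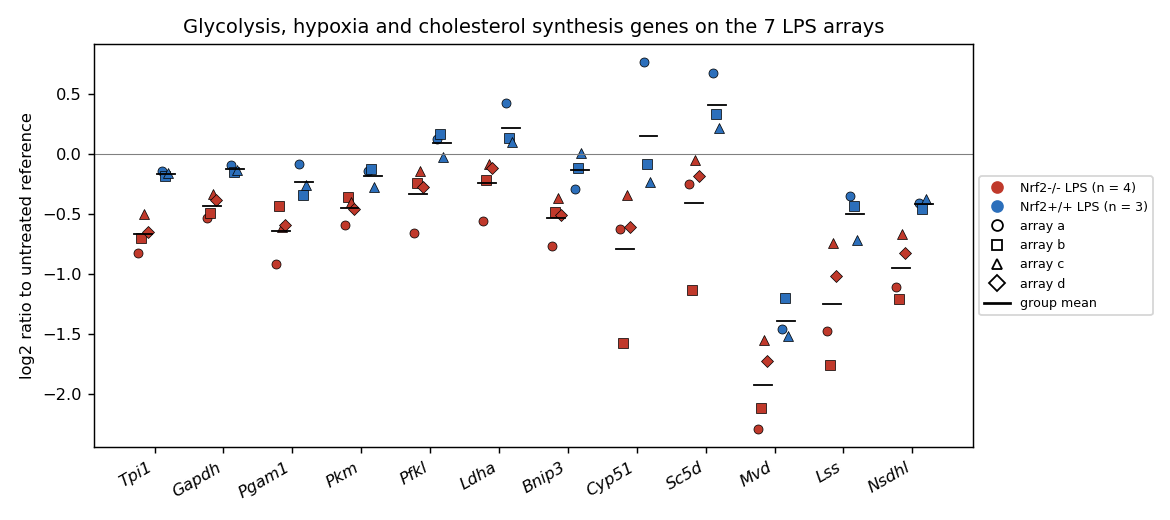
Log2 ratio to the untreated reference (y axis) of 7 glycolysis and hypoxia genes and 5 cholesterol synthesis genes whose LPS arrays do not overlap between Nrf2-/- (red, n = 4, left) and Nrf2+/+ (blue, n = 3, right). Marker shapes give the replicate letter and bars the group means; none of the 12 genes passed the test over all genes.

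Inflammatory genes such as Il6 stood far above the untreated reference on the LPS arrays of both genotypes. The LPS response of the knockout itself was not measured, as it had no array without LPS and the genotype of the reference is not given. Il6, a cytokine of the acute phase, had log2 ratios of 11.46, 11.59, 11.22 and 11.46 in the knockout and 10.93, 11.59 and 10.35 in the wild type. The difference of Il6 was 0.48 ± 0.54 (SE) on the log2 scale, with overlap. Il1b, the pyrogenic cytokine, had 7.83, 7.63, 7.37 and 8.07 in the knockout and 7.88, 7.63 and 7.45 in the wild type, a log2 difference of 0.07 (95% confidence interval -0.46 to 0.60). Tnf, the early cytokine of the response, had 4.33, 4.49, 4.47 and 4.15 in the knockout and 4.79, 3.86 and 3.90 in the wild type, also with overlap.

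Il12b, the shared subunit of IL-12 and IL-23, had log2 ratios of 9.18, 9.08, 8.54 and 9.33 in the knockout and 8.65, 8.45 and 8.17 in the wild type. Its groups overlapped through knockout array c alone, and the log2 difference was 0.61 (95% confidence interval -1.09 to 2.31). Nos2, the inducible nitric oxide synthase, had 5.47, 5.75, 5.58 and 6.20 in the knockout and 5.48, 5.50 and 5.38 in the wild type. For Nos2 the log2 difference was 0.29 (95% confidence interval -0.53 to 1.12) under LPS and 3.26 under heme and LPS, and these differed by 2.96 ± 0.53 (SE, limma adjusted p = 0.0144). Il10, the anti-inflammatory cytokine, had a log2 difference of 0.28 ± 0.33 (SE) under LPS.

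Across the cytokine and chemokine lists 52 genes were measured, 0 passed, 2 (Cxcl5 and Ppbp) were lower at an unadjusted p under 0.05 (3.85%, against 1.28% of all genes) and 0 were higher. The median log2 difference was 0.13. The interval lay within 1 log2 unit for 13 of the 41 members without an exact 0 (31.7%), so for most of these genes a change of 1 log2 unit was not excluded by these arrays. Cxcl5, a chemokine for neutrophils, was listed at 0 on all 4 knockout arrays, against 0.00, 2.86 and 4.62 on the wild type arrays. Wild type array a shared the 0 of the knockout (log2 difference -2.49, limma adjusted p = 1).

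Ppbp, another chemokine of the CXC family, had log2 ratios of -0.69, -1.19, -0.78 and -0.52 in the knockout and 0.35, -0.43 and 0.08 in the wild type. It did not overlap, with a log2 difference of -0.79 (limma adjusted p = 1). Both chemokines fell in the knockout under heme and LPS, where Cxcl5 had a log2 difference of -8.61 and Ppbp of -4.25, and their differences of effects passed (limma adjusted p = 0.0375 and 0.00127). With the block over all LPS-treated arrays that of Cxcl5 did not pass (limma adjusted p = 0.061). Ccl17, a chemokine for T cells, had 5.60, 4.95, 5.18 and 5.17 in the knockout and 2.92, 4.44 and 4.39 in the wild type. All knockout arrays of Ccl17 lay above all wild type arrays, with a log2 difference of 1.31 (95% confidence interval -0.16 to 2.77), which was 0.81 without wild type array a.

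Of the type I interferon response 34 of 37 genes were measured, and 0 reached an unadjusted p under 0.05 (against 2.48% of all genes). Their median log2 difference was -0.03, with a range of -0.40 to 0.94. Ifnb1, which encodes interferon beta, stood at the upper end, with log2 ratios of 7.96, 8.51, 8.36 and 6.66 in the knockout and 5.38, 7.87 and 7.56 in the wild type. Cxcl10, an interferon-induced chemokine, had 9.83, 9.82, 8.64 and 10.18 in the knockout and 11.69, 8.87 and 8.79 in the wild type. Both overlapped, and wild type array a was the lowest of 7 for Ifnb1 and the highest for Cxcl10. The guanylate-binding proteins and immunity-related GTPases, 18 of 18 measured, had a median of 0.01. The interval lay within 1 log2 unit for 8 of the 34 interferon genes (23.5%) and for 1 of these 18 (5.56%). Over all genes without an exact 0 that share was 80.7%. For most genes of both lists a change of 1 log2 unit was therefore not excluded by these arrays.

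Cd80, a ligand that co-stimulates T cells, had log2 ratios of 0.46, 0.50, 0.59 and 0.44 in the knockout and -0.47, -0.28 and -0.38 in the wild type. The 2 genotypes were tight and separate, with a log2 difference of 0.87 ± 0.24 (SE, 95% confidence interval 0.36 to 1.39, limma adjusted p = 1). Its 2 probes differed by 0.03. Cd80 passed in only 1 alternative, with both LPS arrays and both heme arrays of letter a left out (log2 difference 0.84, limma adjusted p = 0.008). The knockout heme array left out there had -0.49, against 0.48 to 0.73 on the other knockout heme arrays. With the block over all LPS-treated arrays Cd80 did not pass (limma adjusted p = 0.968), nor with any single LPS array left out. Cd80 rose in the knockout by 1.43 under heme and LPS (limma adjusted p = 0.00171).

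**Figure D5:**
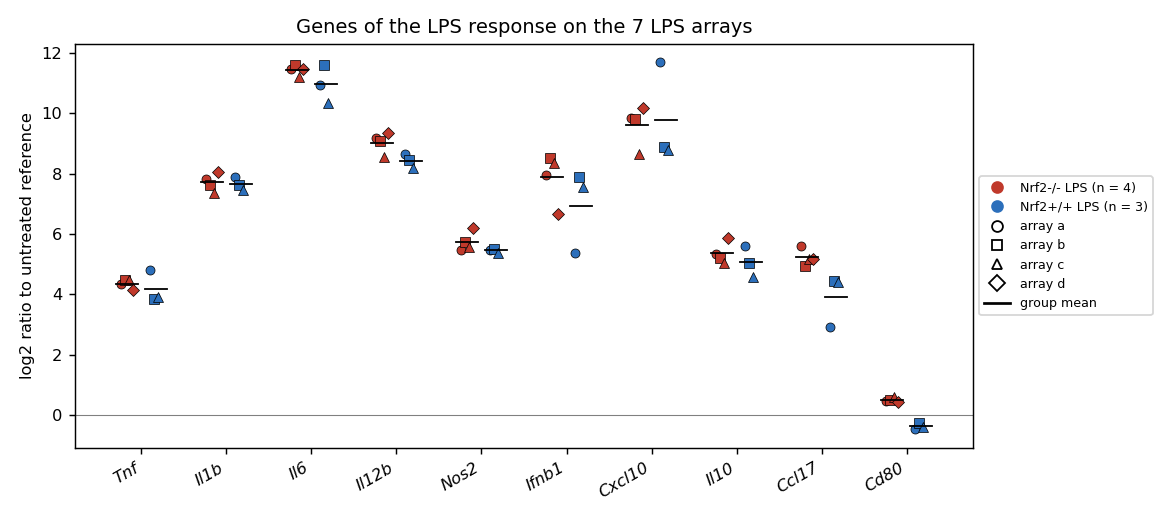
Log2 ratio to the untreated reference (y axis) of 10 genes of the LPS response on every LPS array, with Nrf2-/- (red, n = 4) left of Nrf2+/+ (blue, n = 3). Marker shapes give the replicate letter and bars the group means; Ccl17 and Cd80 do not overlap between genotypes and the other 8 do.

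In the list of p53 targets and cell death 19 of 25 genes were measured, and 2 of these 19 were higher at an unadjusted p under 0.05, against 1.2% of all genes. Gadd45a, a sensor of DNA damage and stress, had log2 ratios of 0.90, 2.62, 1.68 and 1.66 in the knockout and -0.76, 1.002 and 0.86 in the wild type. Only knockout array a overlapped the wild type. The log2 difference of Gadd45a was 1.35 (95% confidence interval 0.48 to 2.22, limma adjusted p = 1), and 0.78 without wild type array a. Bmf, a promoter of apoptosis of the BCL2 family, had -3.23, -4.74, -4.23 and -3.12 in the knockout and -5.44, -4.27 and -5.76 in the wild type, with overlap (log2 difference 1.33, limma adjusted p = 1). Aim2, a sensor of cytosolic DNA, had 1.75, 1.49, 1.60 and 1.65 in the knockout and 2.24, 2.14 and 2.07 in the wild type. It was lower without overlap, by a log2 difference of -0.53 (limma adjusted p = 1).

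Over all 35 lists joined, 657 of 698 genes were measured and 0 passed under LPS, with 4 higher (0.609%, against 1.2% of all genes) and 16 lower (2.44%, against 1.28%) at an unadjusted p under 0.05. Marco, a scavenger receptor for bacteria, had a log2 difference of 1.46 (95% confidence interval -0.15 to 3.07), which was 0.69 without wild type array c and 2.29 without wild type array a. Proteasome subunits were measured for 24 of 24 genes, 22 of them negative (91.7%, against 46.7% of all genes), with a median of -0.11 and differences from -0.41 to 0.04. Oxidative phosphorylation, with 27 of 28 genes measured, had a median of -0.02, and all 27 intervals lay within 1 log2 unit. The genes named for macrophage identity, 19 of 20 measured, had a median of -0.01, and none reached an unadjusted p under 0.05.

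Genes outside the lists with the next smallest p values were named after their values had been seen. Rab11fip5, which links RAB11 to endosome traffic, had log2 ratios of -0.95, -0.86, -1.09 and -0.61 in the knockout and -2.08, -1.59 and -1.56 in the wild type. It did not overlap, and its log2 difference of 0.87 ± 0.13 (SE) had the smallest adjusted p after Prm1 (limma, 0.153). Tshz1, a zinc finger transcription factor, had -1.76, -1.01, -0.30 and -1.04 in the knockout and 0.11, 0.91 and 1.33 in the wild type, also without overlap.

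The log2 difference of Tshz1 was -1.81 (limma adjusted p = 1) under LPS and -1.77 (limma adjusted p = 0.00682) under heme and LPS. Its difference of effects was 0.04 ± 0.50 (SE). The gene model Gm6377 had log2 ratios of 3.76, 2.75, 3.35 and 3.45 in the knockout and 5.38, 4.20 and 4.42 in the wild type. Under LPS the log2 difference of Gm6377 was -1.34 (limma adjusted p = 1), while under heme and LPS it rose by 1.66 (limma adjusted p = 0.00105). The other genes of this set, all without overlap, were Ubxn8, 0610012G03Rik and Praf2 with negative differences (-0.48, -1.06 and -0.53) and Irx6, Shc2 and Setd5 with positive ones (0.67, 0.92 and 0.47).

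Genes beside the targeted locus were compared because a targeted allele can carry flanking sequence of another strain. Of the 100 measured genes nearest to Nfe2l2, 50 on each side by order on chromosome 2, 0 passed, 1 had an unadjusted p under 0.05 (1%, against 2.48% of all genes) and for 0 the arrays did not overlap. On all of chromosome 2, 37 of 1844 genes had an unadjusted p under 0.05 (2.01%). Of 4 measured genes that differ between male and female mice, Xist, Uty, Eif2s3y and Kdm5d, 0 reached that p. All 4 were at exactly 0 on some of the 7 arrays, and Xist ran from -0.90 to 0.97 within the wild type. The sex of the mice therefore cannot be read from them.

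Markers of other cells that a marrow culture can hold were followed in 7 lists, with 53 of 57 genes measured. Of these 1, the neutrophil granule gene Ngp, had an unadjusted p under 0.05 (1.89%, against 1.28% lower over all genes). Ngp had log2 ratios of 0.00, -0.26, 0.00 and 0.01 in the knockout and 0.06, 1.27 and 0.69 in the wild type. The mean over the 11 neutrophil markers was 0.12 to 0.48 in the knockout and 0.07 to 0.70 in the wild type, which overlap. The B cell marker Ms4a1 was listed at 0 on all 7 arrays. In stromal cells the mean was 0.16 to 1.13 in the knockout and -0.53 to 0.90 in the wild type, where array b held the low value. The part of other cells in the differences above was not tested.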

How the data were processed

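The authors deposited, per the labels, 18 two-colour Agilent arrays from 500 ng of total RNA each, scanned with Agilent Feature Extraction 10.5.1.1 per the submitters' processing notes. The deposited values are log10 ratios of Cy5 (sample) over Cy3 (untreated reference). The log10 scale was inferred from the values, since no label states it, and direction follows the dyes in the labels. Each array had a median of 0. Dye and background correction are not given. Of 44397 features 33026 carried 1 gene symbol, 0 several and 11371 none. Symbols were checked by gene identifier (32438 matched, 0 changed).

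Ratios were converted to log2 and the probes of a gene averaged, giving 22485 genes (16347 with 1 probe). Exact zeros were kept as values. Group means were fitted over all 18 arrays with limma 3.58.1 in R 4.3.3 (lmFit, eBayes), and the 3 comparisons were knockout minus wild type under LPS, the same under heme and LPS, and their difference. Tests were two-sided, and p values were adjusted by Benjamini-Hochberg over all genes, with 0.05 as threshold. The fit was run on simulated arrays with independent normal noise. These had no effect of the replicate letter and no model of exact zeros, so the run does not bear on those traits of the data. Precision is limited by the number of arrays.

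Whether letters a to c pair the arrays was checked from the data, since no label says what a letter marks. The deviations from the group means of same-letter LPS arrays correlated at 0.579 (a), 0.196 (b) and 0.227 (c). Knockout and wild type LPS arrays of different letters had -0.409 to 0.115, so b and c stood less clearly apart than a. A pairing by letter was thus possible, but the main fit did not use it, and the block was run as an alternative. Other alternatives concerned probe averaging, zeros, centring, quantile normalization, variance fits, array weights and arrays left out.

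Members and lists were chosen with earlier results of these data known. Named genes were 16 fixed genes, up to 12 called genes with the largest difference each way and without overlap, called genes with 1 group at 0, up to 4 called and 2 other members per list, the smallest adjusted p values, the 4 smallest for the difference of effects and called neighbours of Nfe2l2. This gave 87 genes, and 29 were added after their values were seen.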

Additional observations from a re-analysis of the deposited data

Results flagged for a closer look

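The knockout effect under heme and LPS, minus that under LPS alone, passed the limma test for 14 of the named genes, and for 8 of these with the replicate letter as a block over all LPS-treated arrays; Nqo1, Gclc, Prdx1, Mgst2, Cxcl5 and Prm1 did not pass there. It was negative for the NRF2-related genes Nqo1 (-2.67), Gclc (-2.85), Gss (-2.58), Prdx1 (-1.70), Mgst2 (-3.02), Gsta3 (-4.84) and Ptgr1 (-3.48), on the log2 scale. It was negative as well for the chemokine genes Cxcl5 (-6.12) and Ppbp (-3.46) and for Pcx (-3.58), which encodes pyruvate carboxylase. It was positive for Nos2 (2.96), Rin2 (2.81), Prm1 (2.21) and the gene model Gm6377 (3.00).

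Gm6377 had log2 differences of 1.66 under heme and LPS and -1.34 under LPS, the second of these not past the test. Rin2 encodes a regulator of the small GTPase RAB5. Its log2 difference was 3.02 (limma adjusted p = 4.66e-09) under heme and LPS and 0.21 (limma adjusted p = 1) under LPS.

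On single knockout LPS arrays a value stood far from the other 3 in 5 named genes. These were Timp3 on array c (0.62), Ubxn8 on array d (0.023), Setd5 on array b (0.38), Akr1a1 on array b (-0.39) and Ngp on array b (-0.26), all as log2 ratios. Chance flags about 1 in 20 groups of this size, and Timp3 was listed at 0 on the other 3 knockout arrays.

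Features without a gene symbol were outside the comparisons of the report. Among all 44397 features, feature 24526 was higher in the knockout under LPS by 1.65 on the log2 scale and passed the limma test over all features. It had log2 ratios of 6.004, 5.49, 6.19 and 5.81 in the knockout and 4.34, 4.12 and 4.19 in the wild type. Under heme and LPS the feature had 6.23 to 6.70 in the knockout and 5.13 to 5.56 in the wild type, and the wild type albumin arrays had -0.53 to -0.37. Its gene is not named in the files used here.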

How the results depend on the processing

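The count of genes called between genotypes under LPS was 1 and stayed at 1 under most alternatives. It was 0 with the 7 arrays fitted alone and 0 in both fits with the replicate letter as a block. These fits use fewer arrays and leave fewer residual degrees of freedom. They had 699 genes (7 arrays alone), 971 and 1456 (blocks) at an unadjusted p under 0.05, against 557 in the main fit. The fit of the 7 arrays alone also leaves out the spread of the other groups. The count was 6 when the LPS-treated arrays of letter a were left out: Afap1l2, Cd80, Pgbd5, Prm1, Trav7d-4 and H2-M10.2. With single arrays left out it was 1 to 3; without wild type array a, Trav7d-4 and H2-M10.2 joined Prm1, and without wild type array b, Magea4 did. The adjusted p of Prm1 with single arrays left out was 5.16e-05 to 0.00868 (limma), and its difference -2.91 to -2.23. Among members of the 35 lists the count was 0, and 1 (Cd80) without letter a. Under heme and LPS the count of 1189 became 317 with the compared arrays alone, 0 with them and the replicate block, 1807 with every feature, 2124 with array weights, 634 with a size of at least 1 log2 unit and 798 to 1560 with single arrays left out. The difference of effects, 213 genes, became 116, 141 (replicate block, all LPS-treated arrays), 354 (every feature), 879 (array weights) and 135 to 323. Of 115 named genes not past the threshold under LPS, 21 changed sign under at least 1 of 19 alternatives. Of 30 named genes with several probes, 2 (Csf2 and Egln3) had probes whose differences lay more than 1 log2 unit apart. The causes were not tested. Exact zeros, at over 20% of features on every LPS array, limit what can be seen of dim genes.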
